A study of Mus musculus with 3 samples.

Results

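Rab GTPases are small membrane-bound switch proteins, and their genes were taken here as the protein-coding genes whose symbol is Rab followed by digits and at most 1 letter. The rule found 59 genes among 55536 annotated genes, of which 22028 are protein-coding, and all 59 have a value in the gene tables. Genes with other name endings, such as Rab-like genes, are outside the rule. The 59 were measured in total RNA, depleted of ribosomal RNA, from the cytosol of bone marrow-derived macrophages, which are macrophages grown from marrow progenitors in culture. The mice were C57BL/6J, an inbred laboratory strain, with sex and age not collected and no allele or transgene named in the labels.

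All 3 libraries belong to 1 group with 1 treatment sequence. The cells received Lipid A, the membrane-anchoring part of bacterial lipopolysaccharide that activates Toll-like receptor 4, at 100 ng/ml for 12 hours. They were then washed free of it for 12 hours and given 100 ng/ml again for 90 minutes. With no untreated library in the data, the values below are levels after that sequence and not responses to it. The labels number the libraries as biological replicates 1 to 3 from separate biosamples of the same donor record. The spread between them therefore measures variation between these samples, which may include technical variation.

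A Rab protein alternates between a GTP-bound form, which recruits effectors to a membrane, and a GDP-bound form, which is extracted and carried through the cytosol. Exchange factors load GTP, GTPase-activating proteins trigger its hydrolysis, and GDP dissociation inhibitors carry the inactive form. Each Rab marks a particular set of membranes, and in macrophages the family is known for directing phagosome maturation, receptor recycling and cytokine secretion. Levels are given in TPM, the abundance of a transcript scaled to a fixed library total, which corrects for transcript length so that genes can be set against each other. Detection was set at 1 TPM, to be reached by a gene in each of the libraries, and a value written as 132 ± 10.7 is the mean and SD over the 3 libraries.

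The cells carried the markers of their label. In RNA of whole cultures, fewer cells with a transcript and less of it per cell cannot be told apart. All 7 macrophage markers were detected, with summed levels of 4781 to 5444 TPM in the 3 libraries. Of 6 neutrophil markers 2 were detected, at summed levels of 7.72 to 12.7 TPM. Among 4 dendritic cell markers 1 was detected, with the list summing to 1.44 to 1.77 TPM. The lists for T and NK, B, mast, platelet and erythroid, endothelial and stromal, and melanocyte cells had no detected gene, and none of these summed to more than 1.07 TPM. Total expected counts were 4.07e+07, 7.05e+07 and 4.97e+07 in replicates 1, 2 and 3, of which 185975 to 318264 fell on Rab genes. The signal recognition particle RNA genes Rn7s1 and Rn7s2 took 56.4 to 60.6% of all TPM, which compresses the TPM of every other gene. On a scale of nuclear protein-coding genes only, each TPM below would be 3.02 to 3.58 times larger.

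A Rab protein is anchored by lipids attached to cysteines at its end, and all 59 genes had at least 1 cysteine codon among the last 4 codons. The coding sequence read was that of the CCDS-tagged transcript with the highest TPM, where the tag marks a coding sequence agreed between annotation groups. Their arrangement fell into 4 kinds, and 1 gene of each of 3 kinds is shown from the GENCODE M21 transcripts as the last 30 coding bases before the stop codon, with TGT and TGC in capitals in the reading frame. The examples are the genes with the highest mean TPM of their kind:
Rab7: gccaaggcctccgcagaaagcTGCagtTGT
Rab8b: aagaccagtttcttccgcTGTtctctgctt
Rab1a: ccagtcaagcagtcaggtggaggcTGCTGC
The kind of Rab7, with cysteine codons at the last place and the place before the next to last, held 20 genes, of which 8 were detected. The kind with 2 adjacent cysteine codons followed by 1 or 2 others, of which no example is shown, held 9 genes, of which 5 were detected. Rab8b, with a cysteine codon at the fourth place from the end and at none of the last 3, stands for 15 genes, of which 9 were detected. Only the last 4 codons were searched. In Rab11a, Rab11b, Rab21, Rab25, Rab30 and Rab37 of this kind another cysteine codon lies directly before those 4, while Rab8b has none there. Rab1a, with 2 cysteine codons at the very end, stands for 15 genes, of which 13 were detected. Of all 59 Rab genes 59.3% were detected, beside 40.1% of protein-coding genes. Whether arrangement and detection are linked was not tested.

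Rab genes were detected more often than protein-coding genes at large. Of the 59, 35 (59.3%) passed 1 TPM in every library, beside 40.1% of protein-coding genes and 16.7% of all annotated genes. At 10 TPM or more in every library stood 26 of 59 Rab genes, beside 3651 of 22028 protein-coding genes. At 50 TPM or more stood 8 Rab genes, a level at which other genes were not counted. The median Rab gene had log2(TPM + 1) of 2.37 ± 0.24 (SD, n = 3), against 0.18 ± 0.01 for all protein-coding genes. Among detected genes only, the median of mean TPM was 23.7 for Rab genes and 8.51 for protein-coding genes. Membership and detection were known when the family was chosen for description, so these figures describe it and carry no test.

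Together the 59 genes summed to 1219 ± 93.9 TPM. Replicate 1 had the highest sum, 1318 TPM, followed by 1208 TPM in replicate 2 and 1131 TPM in replicate 3. As a share of nuclear protein-coding TPM the sum was 0.398, 0.409 and 0.405%, so on that scale replicate 1 was no longer the highest. The 8 genes at the top, Rab7, Rab5c, Rab8b, Rab20, Rab1a, Rab10, Rab11a and Rab14, held 56.2 ± 0.40% of all Rab TPM. The 24 genes not detected held 0.444 ± 0.050%.

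**Figure D1:**
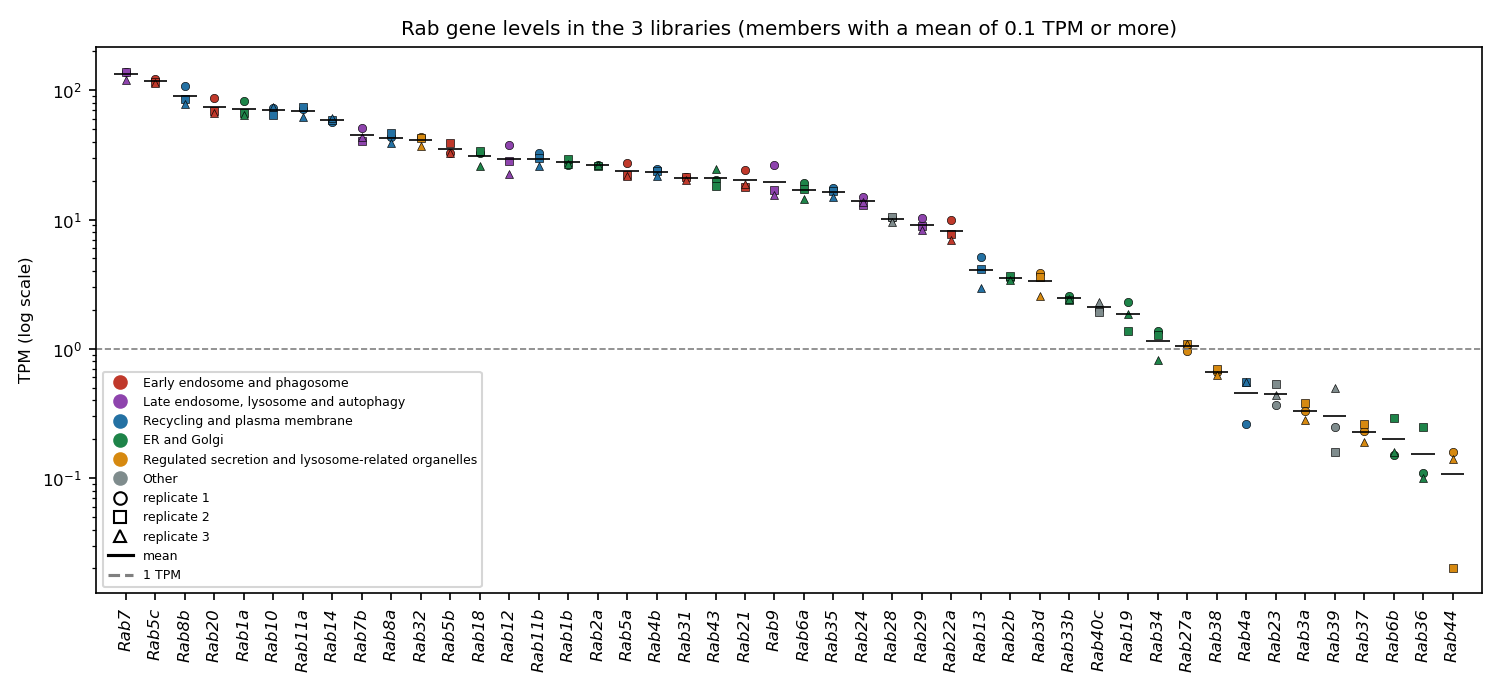
TPM of each Rab gene with a mean of 0.1 TPM or more (log scale), ordered by mean, in replicates 1 (circles), 2 (squares) and 3 (triangles); colours mark the role groups, horizontal bars the means, and the dashed line 1 TPM. Rab7 and Rab5c stand at the left above 100 TPM, and secretion genes other than Rab32 and Rab3d lie at or below about 1 TPM.

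Early endosome and phagosome Rabs were detected without exception, 7 of 7, beside 59.3% of all Rab genes and 40.1% of protein-coding genes. The median of their mean levels was 23.7 TPM. Rab5 proteins drive fusion of early endosomes and newly formed phagosomes, and the 3 genes of the subfamily were unequal. Rab5c (ENSMUSG00000019173.11, chr11:100715009-100738215, mm10, minus strand) had 122, 116 and 113 TPM in replicates 1, 2 and 3. Rab5b had 32.99, 39.1 and 32.7 TPM, and Rab5a had 27.2, 22.1 and 21.8 TPM. Rab5c was the highest of the 3 in each library, and its lowest value lay above the highest value of either relative. Rab20, a Rab of early phagosomes and endosomes, stood at 87.6, 69.5 and 66.6 TPM, highest in replicate 1.

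The other members of that group were lower. Rab31, which acts between the trans-Golgi network and endosomes, had 21.3, 21.3 and 20.2 TPM. Rab21, known for the endocytosis of integrins, had 24.2, 17.8 and 18.9 TPM. Their means, 20.9 ± 0.606 and 20.3 ± 3.39 TPM, differed by less than the spread of Rab21. Rab22a, a close relative of Rab31 that acts on early and recycling endosomes, had 9.83, 7.75 and 6.92 TPM and was below Rab31 in each library.

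Late endosome, lysosome and autophagy Rabs included the gene with the highest level of the family. Of 7 genes 6 were detected, beside 40.1% of protein-coding genes, with a median of mean levels of 19.6 TPM. Rab7 (ENSMUSG00000079477.9, chr6:87999106-88045270, mm10, minus strand), which directs fusion of late endosomes and phagosomes with lysosomes, had 139, 139 and 120 TPM. Rab7b, a separate gene whose product acts between late endosomes and the Golgi, had 50.6, 40.3 and 43.6 TPM. Rab7 was above Rab5c in each library, although its value in replicate 3 lay inside the range of Rab5c over libraries.

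Rab12, which acts in transport from recycling endosomes to lysosomes, had 37.4, 28.4 and 22.7 TPM. Rab9, which returns receptors from late endosomes to the trans-Golgi network, had 26.3, 17.1 and 15.5 TPM. In both genes replicate 1 was the highest library and replicate 3 the lowest. Rab24, a Rab linked to autophagy, had 14.9, 12.97 and 13.6 TPM. Rab29, which recruits the kinase LRRK2 to membranes, had 10.2, 8.85 and 8.25 TPM. Rab9b, the relative of Rab9, had 0 counts in all 3 libraries, and 3 counts in a library would be at most 0.013 TPM.

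Recycling and plasma membrane Rabs were detected in 9 of 13 genes, beside 40.1% of protein-coding genes. The median of their mean levels was 23.4 TPM. Rab8b, a Rab of exocytic transport, had 108, 86.1 and 78.7 TPM. Rab10, which acts in secretory and surface transport and is known for bringing Toll-like receptor 4 to the macrophage surface, had 72.7, 64.3 and 74.7 TPM. Rab11a, the main Rab of the recycling endosome, had 72.2, 74.8 and 61.8 TPM. The libraries of Rab20, Rab1a, Rab10 and Rab11a overlapped in range, although Rab20 was above Rab1a in each library.

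Rab14, which acts between the trans-Golgi network and endosomes, had 57.2, 58.8 and 60.98 TPM and lay below the lowest library of Rab11a. With CCDS-tagged transcripts only, the order was the opposite, with 56.2 ± 1.19 TPM for Rab14 and 13.3 ± 1.77 TPM for Rab11a. Rab8a had 43.4, 46.6 and 38.96 TPM and Rab11b 32.5, 29.8 and 25.8 TPM, each lower than its relative in every library. Rab4b and Rab35 both serve fast recycling to the surface. Rab4b had 24.5, 23.9 and 21.7 TPM and Rab35 17.7, 16.6 and 14.9 TPM, with no overlap between them. Rab13, known from epithelial junctions, had 5.14, 4.15 and 2.97 TPM and was lowest in replicate 3. The 4 genes not detected in this group were Rab4a (0.26, 0.55 and 0.55 TPM), Rab15 (mean 0.050 TPM), Rab17 (counts only in replicate 3, 3 of them) and Rab25. Rab17 and Rab25 are best known from epithelial cells, and Rab25 had 0 counts in all 3 libraries, where 3 counts in a library would be at most 0.088 TPM.

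ER and Golgi Rabs were detected in 9 of 14 genes, beside 40.1% of protein-coding genes. The median of their mean levels was 2.98 TPM. Rab1a, which is needed for ER to Golgi transport, had 83.04, 66.4 and 64.1 TPM, and its relative Rab1b had 26.6, 29.6 and 26.9 TPM. Rab18, a Rab of the ER and lipid droplets, had 32.7, 34.2 and 25.7 TPM. Rab2a, which acts at the Golgi and in lysosome delivery, had 26.6, 26.1 and 26.4 TPM and was the steadiest detected member, with an SD of 1.05% of its mean. The levels of Rab18, Rab1b and Rab2a overlapped, while Rab1a was higher than all of them in each library. With CCDS-tagged transcripts only, Rab18 had 4.97 ± 0.49 TPM and lay below Rab1b (27.6 ± 1.56) and Rab2a (26.4 ± 0.28).

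Rab43, a Golgi Rab, had 20.3, 18.03 and 24.4 TPM, and Rab6a, which acts in transport within and back from the Golgi, had 19.3, 17.1 and 14.4 TPM. Rab2b had 3.44, 3.68 and 3.38 TPM. Rab33b, whose product binds the autophagy protein ATG16L1, had 2.55, 2.37 and 2.43 TPM, and Rab19 had 2.32, 1.38 and 1.87 TPM. These last 3 were each below every library of Rab6a. Rab34 had 1.37, 1.27 and 0.82 TPM and so passed 1 TPM in 2 libraries only. Rab6b, Rab36, Rab33a and Rab30 had means of 0.053 to 0.20 TPM.

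Rabs of regulated secretion and lysosome-related organelles were mostly low. Only 2 of 11 genes were detected, beside 40.1% of all protein-coding genes, and the median of mean levels was 0.227 TPM. Rab32, which acts on lysosome-related organelles and mitochondria, had 43.7, 42.7 and 37.2 TPM, the eleventh highest mean of the family. Rab3d, a Rab of secretory granules in non-neuronal cells, had 3.84, 3.62 and 2.55 TPM. Rab27a, the granule-docking Rab of cytotoxic cells and melanocytes, had 0.97, 1.09 and 1.08 TPM and passed 1 TPM in 2 libraries only.

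Rab38, which shares its melanosome role with Rab32, had 0.66, 0.70 and 0.63 TPM. Rab3a, the abundant Rab of synaptic vesicles, had 0.33, 0.38 and 0.28 TPM. Rab37 and Rab44, both described in mast cell or granule secretion, had means of 0.227 and 0.107 TPM. Rab26 and Rab3b had counts in 1 library each, 3 in replicate 2 and 2 in replicate 3. Rab27b had 2 counts, all in replicate 2, and Rab3c had 0 counts in every library, where 3 counts in a library would be at most 0.017 TPM.

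Of the 7 remaining genes 2 were detected, beside 40.1% of protein-coding genes. Rab28 had 10.2, 10.4 and 9.50 TPM, and Rab40c, whose product has a domain that recruits a ubiquitin ligase, had 2.05, 1.91 and 2.31 TPM. The other 5 were Rab23 (0.37, 0.53 and 0.44 TPM), a regulator of Hedgehog signalling, Rab39 (0.25, 0.16 and 0.50 TPM), Rab42, Rab39b and Rab40b. Rab42 had a mean of 0.083 TPM, and Rab39b and Rab40b had 3 counts in replicate 2 and 2 counts in replicate 3. In all, 9 Rab genes had 3 counts or fewer in each library, 3 of them with none. The limits given for 3 counts cover counting error only, since amplified copies of a fragment are not independent molecules.

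Within pairs of related Rab genes, 1 partner was usually well above the other. Of 18 pairs compared, 14 had a nonzero value for both genes in all 3 libraries. The sign of the ratio was the same in 3 of 3 libraries for all 14, and 13 of them passed 2-fold in each library. Pairs of other genes were not compared, so no background share can be set beside these counts. Rab5a with Rab5b was not among the 18. With 3 libraries the smallest p of a two-sided exact sign-flip test is 0.25, so no p is given. The coding sequences of the 18 pairs, read from those tagged transcripts, were 50.9 to 78.4% identical. The lowest value was that of Rab7 (621 bases) with Rab7b (471 bases), read from Rab7b-201, which lacks an exon of Rab7b-202. The next lowest was 63.9%, for Rab32 with Rab38. The posterior SD of a count, which reflects reads shared with other genes, was at most 1.36% of the count among detected Rab genes (Rab43).

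In 5 pairs, among them the 4 widest ratios, a detected gene stood beside one that was not detected. Rab6a, expressed widely, was 88.1 times Rab6b, a form known from neurons (0.15, 0.29 and 0.16 TPM). Rab32 was 62.00 times Rab38, and Rab4b was 54.4 times Rab4a. Rab33b was 37.4 times Rab33a (0.07, 0.08 and 0.05 TPM), and Rab3d was 10.03 times Rab3a. On the log2 scale the Rab4a over Rab4b ratio was -5.77 ± 0.69 and the Rab6a over Rab6b ratio 6.46 ± 0.56 (SD, n = 3). Both of these had an SD over 0.5, and the remaining 12 pairs had a smaller one. In each of these 5 pairs the lower gene rests on few reads, from 4 to 167 counts per library. After adding 1 TPM to each gene, the log2 ratios were smaller, at 4.66 for Rab32 over Rab38, -4.07 for Rab4a over Rab4b and 3.89 for Rab6a over Rab6b. They were 1.69 for Rab33b over Rab33a and -1.69 for Rab3a over Rab3d, so the order of the widest pairs rests on this choice.

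Other pairs were made of 2 detected genes. Rab10 was 17.7 times Rab13 and Rab2a was 7.54 times Rab2b. Rab5c was 4.96 times Rab5a and 3.36 times Rab5b. Rab7 was 2.96 times Rab7b, with a log2 ratio of 1.57 ± 0.19. The narrowest ratios were those of Rab31 over Rab22a (2.59), Rab1a over Rab1b (2.55), Rab11a over Rab11b (2.37) and Rab8b over Rab8a (2.10). The Rab8a over Rab8b pair was the one that fell short of 2-fold in a library, with log2 ratios of -1.32, -0.88 and -1.01.

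The other 4 pairs, Rab9 with Rab9b, Rab27a with Rab27b, Rab39 with Rab39b and Rab40c with Rab40b, had a partner at 0 TPM in at least 1 library and were given no mean ratio. The first-named gene had the higher mean in each. Of the 14 ratios, 5 moved by more than their SD when other transcripts were summed, those of the Rab8, Rab11, Rab6, Rab33 and Rab2 pairs. With CCDS-tagged transcripts only, Rab8b was 5.30 times Rab8a (log2 ratio -2.41 ± 0.13) and Rab11a was 4.09 times Rab11b (2.03 ± 0.19). Rab6a was then 52.5 times Rab6b, below the ratios of Rab32 over Rab38 (64.5) and Rab4b over Rab4a (55.8). In expected counts, where transcript length is not accounted for, the Rab11a over Rab11b ratio turned to -0.15 ± 0.08 on the log2 scale.

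**Figure D2:**
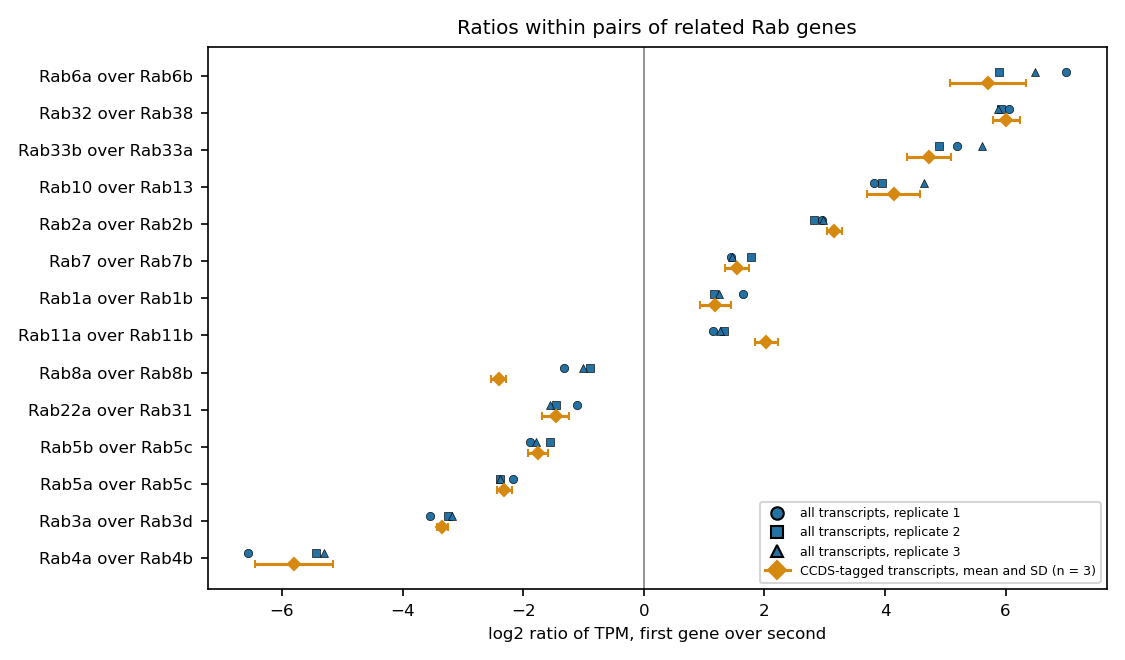
Log2 ratio of TPM, first gene over second, for the 14 Rab pairs with values in all 3 libraries; blue symbols are the 3 libraries with all transcripts, and orange diamonds the mean and SD (n = 3) with CCDS-tagged transcripts only. All 14 pairs keep to 1 side of 0, and the 2 measures lie furthest apart for Rab8a over Rab8b (-1.07 and -2.41).

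Most detected Rab genes, like most detected protein-coding genes, had 1 main transcript by share of TPM. In 31 of 35 a single transcript took over 50% of the gene's TPM in each library, beside 79.8% of detected protein-coding genes. At a share over 80% in each library the 31 fell to 22, and at over 90% to 21, rates not counted for other genes. The 31 include Rab8a, whose leading transcript has no coding sequence. Rab10, Rab8b, Rab20, Rab2a and Rab19 had a mean share of 100% for their leading transcript. Rab2b passed narrowly, with 73.05, 51.04 and 50.9% for Rab2b-201. The 4 genes without such a transcript were Rab11a, Rab18, Rab6a and Rab7b. In 4 genes the transcript with the largest share was not CCDS-tagged, and these were Rab8a, Rab11a, Rab11b and Rab18.

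In Rab8a the largest share belonged to Rab8a-202, a transcript annotated as retaining an intron and carrying no coding sequence. It took 57.6, 62.1 and 60.5% of the gene's TPM in replicates 1, 2 and 3, and the coding transcript Rab8a-201 took 39.7 ± 2.60% (SD, n = 3). In counts the order was the opposite, with 90.2 ± 1.19% for Rab8a-201 and 9.79 ± 1.17% for Rab8a-202. The transcripts are 4550 and 542 bases long, so a read on the short one weighs more in TPM. The last exon of Rab8a-202 (chr8:72175840-72176057, mm10, plus strand, 218 bases) is shown because it is what sets this transcript apart, with the 128 bases that are intron in Rab8a-201 in capitals:
Rab8a-202 last exon: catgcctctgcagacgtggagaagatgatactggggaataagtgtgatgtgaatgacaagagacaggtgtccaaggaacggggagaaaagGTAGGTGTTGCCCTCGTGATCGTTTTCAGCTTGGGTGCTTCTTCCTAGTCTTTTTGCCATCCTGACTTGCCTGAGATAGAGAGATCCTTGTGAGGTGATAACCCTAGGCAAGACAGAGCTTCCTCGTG
The first 90 bases of it, in lower case, are shared with Rab8a-201. With CCDS-tagged transcripts only, Rab8a had 17.04 ± 1.51 TPM and moved from rank 10 to rank 20 of the family.

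Rab11a showed the same contrast between TPM and counts. Rab11a-201, of 595 bases and with a coding sequence that carries no CCDS tag, took 47.9, 24.8 and 34.3% of TPM in replicates 1, 2 and 3. The CCDS-tagged Rab11a-208, of 2336 bases, took 19.2 ± 1.93% of TPM but 61.1 ± 1.35% of counts. With CCDS-tagged transcripts only, Rab11a moved from rank 7 to rank 22. In Rab11b the tagged Rab11b-201 took 11.1 ± 1.14% of TPM and 37.7 ± 2.58% of counts, and the largest share belonged to the protein-coding Rab11b-203 with 74.2 ± 0.41%. In Rab18 the tagged Rab18-205 took 16.3 ± 2.49% of TPM and 66.3 ± 5.15% of counts, and Rab18-203 took 48.7 ± 5.12% of TPM. With tagged transcripts only, Rab11b moved from rank 15 to rank 30 and Rab18 from rank 13 to rank 28. The levels of these 4 genes as a whole rest in part on shorter transcripts without a tag. By contrast, 26 of 35 detected Rab genes had over 90% of their TPM in CCDS-tagged transcripts, a rate not counted for other genes.

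Rab6a has 2 alternative exons of 106 bases, and both forms were present. They are shown because they are the parts that distinguish the transcripts, with the 30 bases that differ in capitals (71.7% identity), both on the plus strand of mm10 chromosome 7, at chr7:100629838-100629943 for Rab6a-201 and chr7:100629666-100629771 for Rab6a-202 and Rab6a-203:
Rab6a-201 exon: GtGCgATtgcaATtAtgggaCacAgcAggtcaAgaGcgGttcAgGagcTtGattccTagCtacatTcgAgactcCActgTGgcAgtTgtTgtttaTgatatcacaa
Rab6a-202 exon: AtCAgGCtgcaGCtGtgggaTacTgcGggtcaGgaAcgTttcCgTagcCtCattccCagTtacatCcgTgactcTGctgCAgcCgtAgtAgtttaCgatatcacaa
Transcripts with the first exon took 52.0, 49.1 and 52.1% of Rab6a TPM, and those with the second took 48.0, 50.5 and 48.0%. The first led in 2 of 3 libraries, so the forms were not separated beyond their spread. In the second transcript table the first exon had 59.7 ± 0.98% and the second 39.7 ± 0.96%, a difference larger than the spread there.

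Rab7b was also divided between 2 transcripts, both CCDS-tagged. Rab7b-202, with a coding sequence of 600 bases, includes an exon of 126 bases that Rab7b-201, with 474, lacks. It is shown because it is the coding difference between them (chr1:131705596-131705721, mm10, plus strand):
Rab7b-202 exon: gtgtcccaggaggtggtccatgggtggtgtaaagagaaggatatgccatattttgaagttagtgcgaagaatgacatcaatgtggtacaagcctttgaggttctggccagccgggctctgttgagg
Rab7b-201 took 52.4, 47.4 and 47.7% of TPM and Rab7b-202 44.4, 49.2 and 50.6% in replicates 1, 2 and 3. In counts Rab7b-202 had 74.1 ± 2.37%, its transcript being 4498 bases long against 1672. In the second transcript table Rab7b-201 had 56.3 ± 0.485% of TPM and Rab7b-202 40.5 ± 1.12%. Rab43 was less settled between tables, since Rab43-203 took 66.00 ± 2.90% in the first and 91.5 ± 3.86% in the second.

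**Figure D3:**
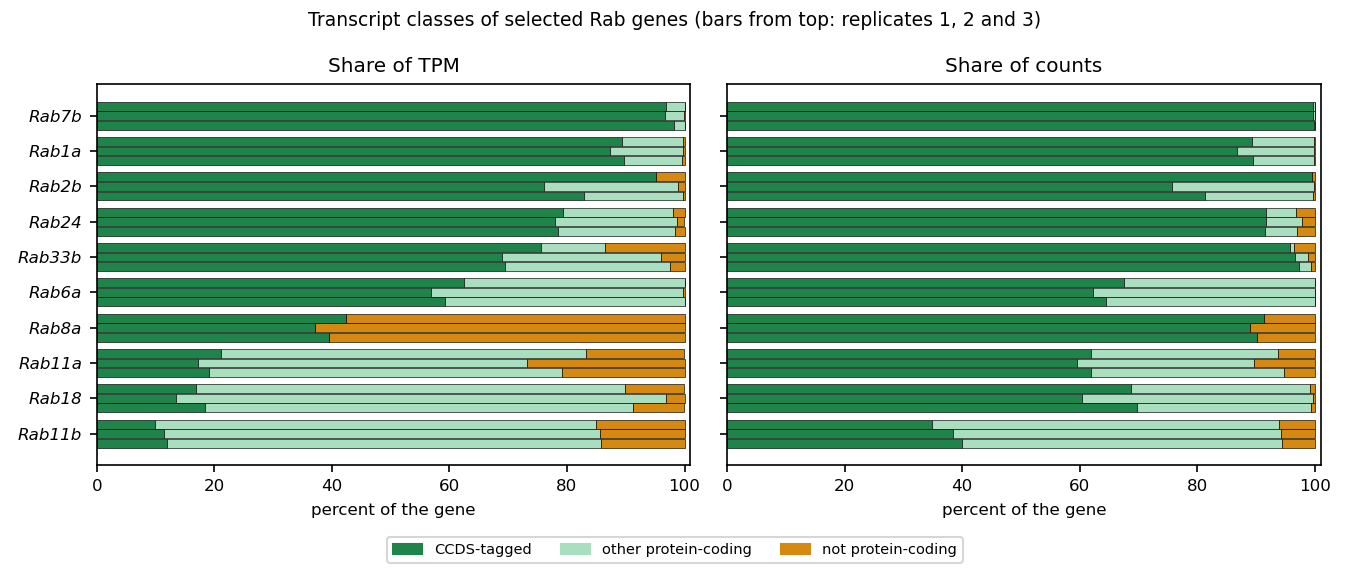
Percent of each gene's TPM (left) and counts (right) in CCDS-tagged, other protein-coding and not protein-coding transcripts, for the 9 detected Rab genes with under 90% of TPM in CCDS-tagged transcripts and for Rab7b; the 3 bars of a gene are replicates 1 to 3 from the top. Rab8a has about 40% of TPM but about 90% of counts in its CCDS-tagged transcript, and Rab11b has the smallest tagged share of TPM.

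No Rab gene was called variable between libraries in the planned test, and few genes of any kind were. A count of 0 among 45 genes lies near the share of all genes, so it sets the family apart from none. Of the 45 Rab genes with enough counts to be tested, 0 were called more variable than genes of like abundance (edgeR goodness-of-fit test against the dispersion trend, Benjamini-Hochberg adjusted p below 0.05), beside 240 of 12256 genes (1.96%). At an unadjusted p below 0.05 in edgeR there were 2 Rab genes, 4.44% of those tested and beside 6.88% of all genes. They were Rab39 (edgeR, Benjamini-Hochberg adjusted p = 0.144) and Rab9 (edgeR, Benjamini-Hochberg adjusted p = 0.542). Rab39 stood at 43, 51 and 122 counts, highest in replicate 3, and Rab9 at 1982, 2474 and 1665 counts, highest relative to depth in replicate 1. Rab genes called by edgeR were again 0 with relative log expression scaling, with no filter on low counts and with counts of the second transcript table. The genes of all kinds then called were 243 of 12256, 262 of 20932 and 227 of 13232. At an unadjusted p below 0.05 in edgeR stood 2 of 45, 3 of 56 and 2 of 46 Rab genes. Those shares were 4.44, 5.36 and 4.35%, beside 6.92, 6.1 and 6.72% of all genes. With 1 dispersion for all genes, an alternative chosen after seeing the data, edgeR called Rab39 alone of the 45, beside 2.49% of all genes.

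In TPM the median coefficient of variation was 10.4% over detected Rab genes and 10.1% over detected protein-coding genes. The highest library was 1.5 times the lowest or more in 5 of 35 detected Rab genes, beside 13.1% of detected protein-coding genes, and was 2 times the lowest in 0. The 5 were Rab13, Rab9, Rab19, Rab12 and Rab3d, with ratios of 1.73, 1.70, 1.68, 1.65 and 1.51. Replicate 1 was the highest library in 22 of 35 detected Rab genes and in 4240 of 8838 detected protein-coding genes. The same library had the highest share of TPM on protein-coding genes, and the part of that in the Rab values was not tested.

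The 2 quantifications of the same libraries put the Rab genes in nearly the same proportions. The second transcript table, which was made directly from the reads, gave lower TPM for all 35 detected Rab genes, with a median ratio of gene table to second table of 1.83 for detected Rab genes and 1.80 for detected protein-coding genes. Past 1.5-fold stood 33 of 35 Rab genes, beside 92.1% of detected protein-coding genes. Relative to the protein-coding median, a measure chosen after seeing the data, 0 of 35 passed 1.5-fold, beside 1.57%. Rab11a and Rab22a, the 2 genes within 1.5-fold, were 1.30 and 1.21 times higher in the second table than the common ratio gives. Rab27b, at 0 TPM in the gene table, had 0.053 ± 0.009 TPM in the second.

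**Figure D4:**
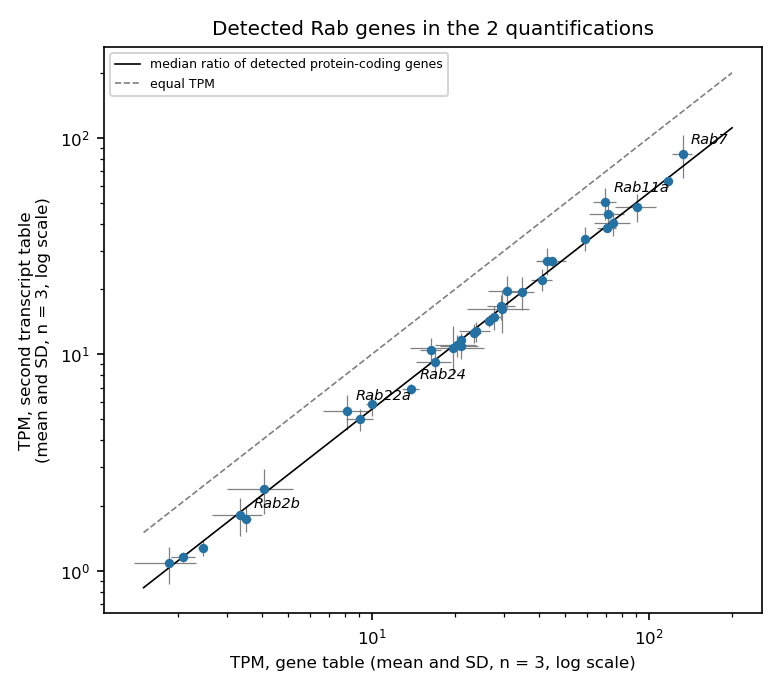
TPM of the 35 detected Rab genes in the gene table (x axis) and summed from the second transcript table (y axis), both on log scales, with mean and SD (n = 3); the solid line is the median ratio of detected protein-coding genes and the dashed line equality. The genes follow the solid line, with Rab11a and Rab22a above it.

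The genes that load, switch and read Rab proteins were detected in 95 of 124 cases, beside 40.1% of protein-coding genes, and edgeR called 0 of the 113 tested variable at a Benjamini-Hochberg adjusted p below 0.05, beside 1.96% of all genes. At an unadjusted p below 0.05 edgeR had 3 of them, 2.65% beside 6.88% of all genes. Of 8 genes for lipid attachment and delivery 7 were detected. Gdi2, a GDP dissociation inhibitor, had 123, 142 and 128 TPM, close to Rab7. Rabac1, a membrane protein that binds lipid-modified Rabs, had 24.5, 23.6 and 15.9 TPM. The 2 subunits of the enzyme that attaches the lipid were lower, Rabggtb at 11.6 ± 0.696 TPM and Rabggta at 3.63 ± 0.243 TPM. Chml, an escort protein, was the gene not detected, with 0.97, 1.02 and 1.07 TPM.

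Exchange factors were detected in 31 of 38 genes, beside 40.1% of protein-coding genes. The highest were Dennd1a, which activates Rab35, at 32.9 ± 5.61 TPM, Rin2, which activates Rab5, at 25.9 ± 8.34 TPM, and Ccz1, part of the complex that activates Rab7, at 24.5 ± 2.13 TPM. The lowest were Dennd3 and Rin1, each with a mean of 0.04 TPM, Dennd5b and Dennd2c. Rin1 and Rin2, both exchange factors for Rab5, thus stood at opposite ends of the list.

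GTPase-activating proteins were detected in 26 of 33 genes, beside 40.1% of protein-coding genes. Tbc1d13, which acts on Rab35, had 58.9 ± 8.07 TPM, Tbc1d2b had 31.3 ± 1.77 TPM, and Tbc1d20, which acts on Rab1, had 20.8 ± 2.49 TPM. At the low end were Sgsm1, Tbc1d10c, Tbc1d30 and Sgsm2, with means of 0.0067 to 0.333 TPM. Of the 3 kinase and phosphatase genes, Ppm1h, which removes phosphate from Rab proteins, had 19.96 ± 1.07 TPM and Lrrk1, a kinase of Rab7, 7.52 ± 0.0346 TPM. Lrrk2, which phosphorylates Rab8, Rab10 and related proteins, had 1.16, 0.99 and 1.43 TPM and so missed 1 TPM in replicate 2.

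Effectors were detected in 29 of 42 genes, beside 40.1% of protein-coding genes. Rilpl2, which binds phosphorylated Rab8 and Rab10, was the highest at 78.8, 61.01 and 50.4 TPM, followed by Ehbp1l1, a Rab8 effector, at 35.8 ± 2.88 TPM and Vps41, a subunit of the lysosomal tethering complex, at 22.5 ± 0.926 TPM. Among the list's lowest genes were Sytl4, Sytl5, Myrip and Exph5, at 0 TPM in each library. These 4 are Rab27 effectors, and all 8 Rab27 effectors of the synaptotagmin-like and Slac families in the list, a subset chosen after their values were seen, lay under 1 TPM in every library. Rab27a and Rab27b themselves were at about 1 TPM and at 0 TPM. The share of all genes under 1 TPM in every library was not counted. Because the subset was chosen after its values were seen, its count carries no test. A link between these effectors and the Rab27 levels was not tested. Unc13d, a Rab27 effector of another family that primes secretory granules, had 11.1, 8.63 and 8.77 TPM.

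**Figure D5:**
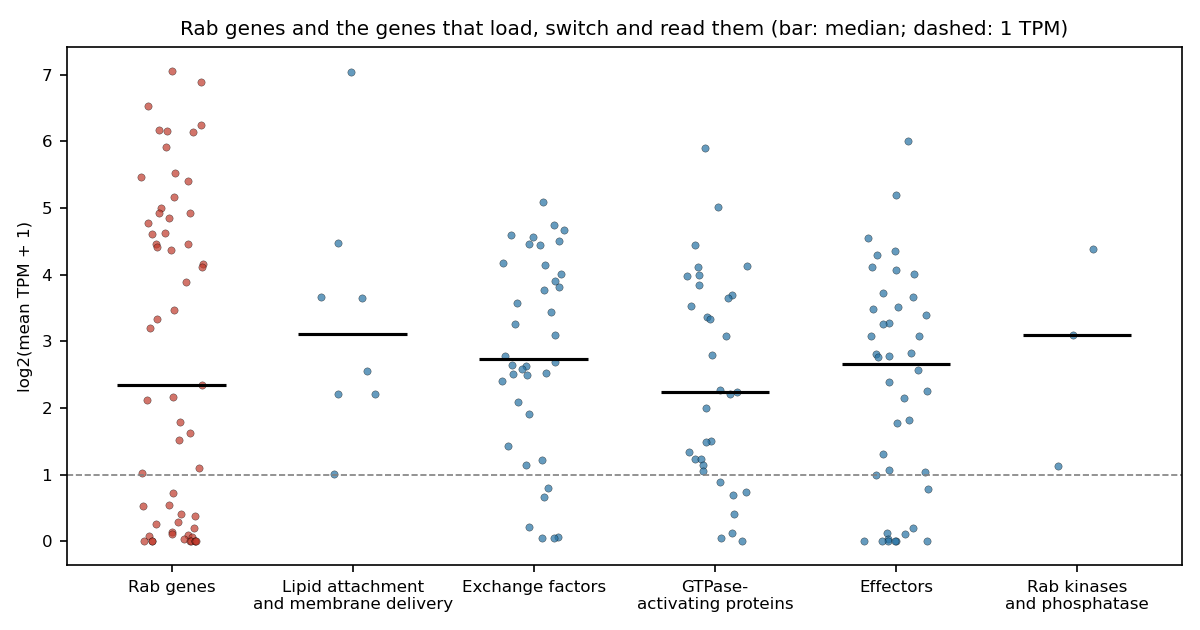
Mean level of each gene as log2(mean TPM + 1) for the 59 Rab genes and the 5 lists of genes that act on them; horizontal bars are medians and the dashed line is 1 TPM. Gdi2 is the one gene of the lipid attachment list that reaches the level of Rab7, and the Rab genes spread widest, from 0 to 132 TPM.

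Around the start sites of the Rab genes, CG dinucleotides were frequent. RefSeq promoter windows on GRCm38, of 250 bases before to 50 after the start, were found for 48 of the 59 genes. The motif counted was CG, which reads the same on both strands. Detected Rab genes had a median of 25 CG in the window (n = 32) and those not detected a median of 15 (n = 16). The medians for protein-coding genes were 22 when detected and 6 when not. At least 10 CG were present in 93.8% of detected and 68.8% of not detected Rab genes, against 59.2% of all protein-coding genes with a window, 85.8% of those detected and 39.3% of those not detected.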

How the data were processed

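All tables were made on the mm10 build with GENCODE M21, per the deposited README notes. Not given in the sources used here are the programs and whether counting used strand, so reads of a gene and an overlapping or antisense gene may not be told apart. The deposited gene table holds expected counts (estimated, not whole), their posterior SD and TPM. The authors' first transcript table adds each transcript's percent of its gene's TPM, and the second holds estimated counts and TPM, per the file headers. Features outside the annotated genes (0.0959 to 0.227% of counts, including phiX) were left out. Expected counts were rounded for edgeR 4.0.16 in R 4.3.3 (TMM, filterByExpr, intercept only, trended dispersion, goodness of fit, Benjamini-Hochberg over all genes tested), a procedure tested on simulated data. All other results are descriptions in Python 3.11.15. Total depth was 4.07e+07 to 7.05e+07 counts per library.

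Every Rab gene is named. Values per library are given for detected Rab genes, for paralog pairs with a ratio and for genes passing 1 TPM in some libraries. From each list of acting genes the 3 highest and up to 4 lowest are named, and a few others were named after their values were seen. Not reported here are 1 gene of these lists and 1 sequence. The members, lists, pairs and rules were chosen with earlier results of these data known. Promoter windows come from RefSeq, while protein sequences were not used here. The alternatives tried concerned thresholds, pseudocounts, scaling, filters, tables and left-out libraries. No sample was left out.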

Additional observations from a re-analysis of the deposited data

How the results depend on the processing

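The number of detected Rab genes (35) ranged from 29 at 5 TPM to 39 with TPM rescaled over nuclear protein-coding genes, and was 35 to 36 without 1 replicate. Shares of protein-coding genes at these settings were not counted, so these numbers do not compare Rab genes with other genes. The median Rab level of 2.37 moved to 2.09 with a pseudocount of 0.1 TPM, 4.66 over detected genes only, 3.89 after that rescaling, 1.75 in the second transcript table and 2.13 with CCDS-tagged transcripts (chosen after seeing the data). Leaving out 1 replicate gave 2.25 to 2.49. Of the genes that act on Rabs, 61 were detected at 5 TPM in place of 95, again without a share of other genes. Between tables, the 33 Rab genes past 1.5-fold became 2 at a fold of 2, 0 in counts and 0 relative to the protein-coding median. Of detected protein-coding genes 1.57% passed relative to that median, and their shares at a fold of 2 and in counts were not counted. With 1 dispersion for all genes edgeR called 1 Rab gene in place of 0, with Benjamini-Hochberg adjustment. The Rab11a over Rab11b ratio reversed to -0.15 in counts, a measure without length correction. The remaining 13 pairs kept their sign in counts, but 12 of them moved by more than their SD. Mean log2 ratios of Rab22a over Rab31 (-0.31), Rab5b over Rab5c (-0.94) and Rab7 over Rab7b (0.996) then fell short of 2-fold. Leaving out 1 replicate moved no count of Rab genes by over 1.5 times, but the 240 genes of all kinds that edgeR called variable became 119, 102 and 82 without replicate 1, 2 and 3. Genes under about 0.1 TPM rest on few reads, so differences among them were not detectable at this depth. No paired analysis was possible because there is 1 group.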
